A study of Homo sapiens with 15 samples.

Results

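The heat shock genes described here are HSF1, HSPA8, HSPA1B, HSPH1, DNAJB1, HSPB1, HSP90AA1, HSP90AB1, HSPD1 and HSPE1. They encode a transcription factor and chaperones of the cytosol and of the mitochondrion. They were chosen by name, with earlier results of these data known, and no measured value entered the rule. A transcript cluster, the set of probes that the array reads as 1 transcript, was taken where its annotation carries one of these symbols, alone or among several. The rule found 14 of the 28926 clusters, for 10 of the 20151 gene symbols that the annotation gives, alone or among several. In 9 clusters the symbol stands alone. The other 5 carry HSPA1A and HSPA1B together, so these near-identical genes could not be read apart and are called HSPA1A/HSPA1B below.

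Gene expression was measured in MT-2, a CD4+ T cell line transformed by human T cell leukaemia virus type 1 (HTLV-1), on Affymetrix Human Gene 1.0 ST arrays. The cells received ascorbic acid (AA, vitamin C) at a low dose of 10 µg/ml, an intermediate dose of 50 µg/ml or a high dose of 100 µg/ml, or interferon-alpha (IFN-α2A) at 1000 IU/ml, or were left untreated, always for 48 hours and in medium with heat-inactivated foetal calf serum. Each of the 5 conditions has 3 arrays, 1 from each of 3 experiments, and the question was how the 2 agents change expression in these cells. All arrays are of 1 cell line, and 2 of the 3 experiments carry tags that do not settle how far they are independent of each other, so a p-value measures the spread between these cultures only.

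Heat shock proteins are chaperones: they hold, fold or refold other proteins, and many are made in larger amounts when proteins unfold. HSF1 is the main transcription factor of this response in mammals. It binds as a trimer to heat shock elements, which are inverted repeats of the unit GAA or its complement TTC at a fixed spacing. HSP70 proteins work in cycles with HSP40 and nucleotide exchange partners, HSP90 proteins mature kinases and receptors, and a chaperonin pair folds proteins inside the mitochondrion.

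The promoters are shown because several of these genes hold the letters of the HSF1 binding site. The genes were chosen by name as heat shock genes, so the counts below are not independent of that choice. RefSeq (GRCh38.p14) gave 16 promoter windows, 250 bases before to 50 bases after a transcription start, for HSPA1A and 9 of the 10 genes. They were searched on both strands for 3 alternating units, GAANNTTCNNGAA, and for 2 units, GAANNTTC or TTCNNGAA, each of which also lies inside the 3-unit motif. In the lines below capitals mark the matched units, and all stretches are written 5′ to 3′ on the strand of the gene.
HSPA8 far element, chr11:123062339-123062381 (minus strand): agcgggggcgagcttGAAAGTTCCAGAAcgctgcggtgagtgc
HSPA8 near element, chr11:123062164-123062206 (minus strand): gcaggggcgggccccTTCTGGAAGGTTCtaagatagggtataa
HSP90AA1, chr14:102087090-102087147 (minus strand): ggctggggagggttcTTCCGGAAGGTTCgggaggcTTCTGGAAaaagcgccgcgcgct
HSP90AB1 far element, chr6:44247763-44247805 (plus strand): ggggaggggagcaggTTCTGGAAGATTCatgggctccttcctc
HSP90AB1 near element, chr6:44247816-44247858 (plus strand): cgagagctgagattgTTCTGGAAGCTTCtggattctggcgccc
HSPD1, chr2:197500053-197500090 (minus strand): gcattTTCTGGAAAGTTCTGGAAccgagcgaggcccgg
HSPA1A, chr6:31815422-31815459 (plus strand): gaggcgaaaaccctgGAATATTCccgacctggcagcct
HSPA1B, chr6:31827618-31827655 (plus strand): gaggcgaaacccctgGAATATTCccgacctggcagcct
HSPB1, chr7:76302476-76302513 (plus strand): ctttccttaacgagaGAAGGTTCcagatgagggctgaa
DNAJB1 far element, chr19:14518452-14518489 (minus strand): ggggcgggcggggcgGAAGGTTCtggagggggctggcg
DNAJB1 near element, chr19:14518422-14518459 (minus strand): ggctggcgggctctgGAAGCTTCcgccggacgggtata

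The 3-unit motif lay in 4 of the 16 windows, 1 each of HSPA8, HSP90AA1, HSP90AB1 and HSPD1, while 0.49% of all 35116 RefSeq windows of this length held it. In HSPD1 the capitals run over 4 units, in the window of the start that lies farther from HSPE1. At least 2 units lay in 9 of the 16 windows, of 8 genes, against 13.5% of all windows. The windows of HSPH1 and HSPE1 held neither form of these letters. In HSPA8 the first matched bases stand at positions -230 and -55 from the start, and in HSPA1A and HSPA1B at -106 and -105. The windows of HSPA1A and HSPA1B were identical at 277 of 301 aligned positions. HSPD1 and HSPE1 lie head to head on chromosome 2, their nearest starts 105 bases apart, and the windows of these starts share 204 bases. A match is a description of the letters and not a measured binding site.

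The values are log2 expression summaries made by robust multichip averaging (RMA), which quantile-normalizes the arrays. They were compared with limma, two-sided, and the word called is kept for clusters with p under 0.001 before any adjustment, the limit that the study's methods use. Whole-array medians lay between 6.69 and 6.85. Replicate 3 of high-dose AA stood apart, with a mean correlation of 0.976 to the other arrays where the others had 0.991 to 0.995. The high-dose difference of each gene is therefore also given without it. Unless a block is named, that fit sets the remaining high-dose arrays against all 3 untreated ones and is not paired by experiment. Differences between experiments therefore enter it. The interferon arrays bore out their label: against untreated cells IFI44L was higher by 4.99, OAS2 by 4.78, OAS1 by 3.54 and MX1 by 3.44 on the log2 scale (limma adjusted p at most 1.16e-09), while IFIT1, the fifth gene of that list, was higher by 0.32 and was not called (adjusted p = 1). Of the 9 T cell markers, CD4 (10.10 to 10.97) and IL2RA (13.20 to 13.36) lay above the upper quartile of all 15 arrays. CD7 lay above the median of all 15 and above the upper quartile of 11. CD2 lay above the median of all 15 and above the upper quartile of none. CD5 and CD28 lay below the median of all 15. CD3D, CD3E and CD3G, chains of the T cell receptor complex, lay below the median of all 15, as did 8 of the 9 measured markers of other cells, NCAM1 (6.86 to 7.16) being the exception.

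No heat shock gene was called. In RNA from whole cultures, fewer cells that express a gene and less RNA of it per cell cannot be told apart. Under high-dose AA 0 of 14 clusters passed, where 0.259% of all clusters did. The counts were also 0 for intermediate-dose AA (background 0.0311%), low-dose AA (0.0207%) and IFN-α (0.28%), each against untreated cells, for high-dose AA against IFN-α (0.65%), for any difference among the 5 conditions (0.363%) and for a slope on the AA dose (0.245%). Across the 10 possible pairs of conditions, 0 of 140 limma tests in this fit without a block gave an unadjusted p under 0.05. The share of all clusters that did so was 11% for high-dose AA, 2.34% for intermediate-dose AA, 2.54% for low-dose AA and 1.39% for IFN-α, each against untreated cells. In the remaining pairs this share of all clusters was 3.72% and 4.34% for intermediate-dose and low-dose AA against IFN-α, and 0.712%, 6.66% and 3.78% between intermediate and low, high and low, and high and intermediate doses. It was 12.1% for high-dose AA against IFN-α, 4.58% for any difference among conditions and 11.5% for the slope. The 140 tests count the 5 HSPA1A/HSPA1B clusters separately, and for so few genes a count of 0 is near these shares. After Benjamini-Hochberg adjustment 0% of all clusters passed 0.05 at any AA dose against untreated cells, 0.221% with IFN-α and 0.325% for high-dose AA against IFN-α, and again 0 of the 14. The smallest adjusted p of a heat shock gene was 0.432, for HSP90AA1 in high-dose AA against IFN-α. The intervals give the size of difference that these arrays leave possible. For high-dose AA against untreated cells the 14 estimates ran between -0.24 and 0.19 on the log2 scale, with 95% limits between 0.583-fold and 1.39-fold. The corresponding limits were 0.714-fold to 1.5-fold for intermediate-dose AA, 0.8-fold to 1.69-fold for low-dose AA and 0.751-fold to 1.58-fold for IFN-α. With the experiment as a block the count at p under 0.001 was again 0 in each comparison. That fit had 1 cluster below an unadjusted 0.05 for high-dose AA against untreated cells (16.2% of all clusters). It also had 1 for high-dose AA against IFN-α (17.6%). Without the block and without replicate 3 of high-dose AA the high-dose limits were 0.845-fold to 1.4-fold.

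**Figure D1:**
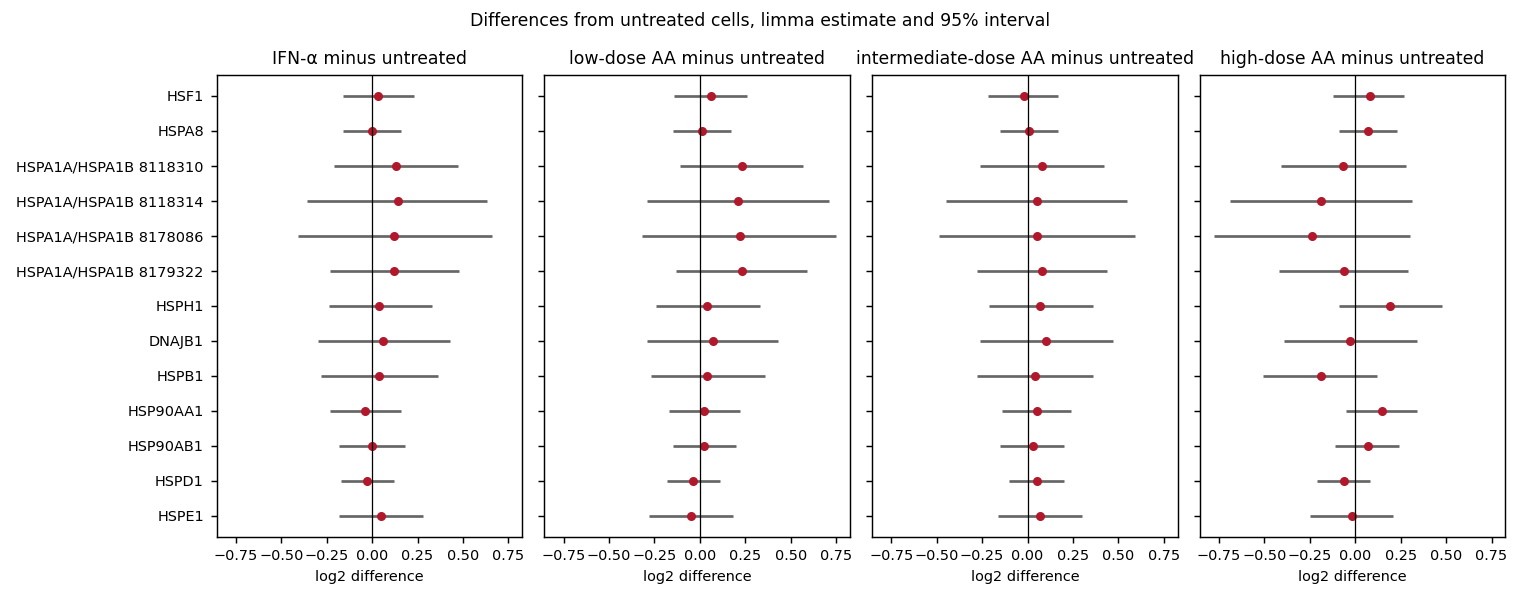
Log2 difference from untreated cells (horizontal axis) for each heat shock gene, with IFN-α, low-dose, intermediate-dose and high-dose AA in 4 panels. Points are limma estimates and lines are 95% intervals over 3 arrays per condition. Each interval includes 0, and those of the HSPA1A/HSPA1B clusters 8178086 and 8118314 are the widest. The 5th cluster of this gene pair repeats the values of 8178086 and is not drawn.

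HSF1, the activator of the response, had values of 8.91, 9.20 and 9.15 in untreated cells, 9.17, 9.21 and 9.07 at 10 µg/ml AA, 9.07, 9.13 and 8.99 at 50 µg/ml and 9.14, 9.23 and 9.13 at 100 µg/ml, in the order of experiments 1, 2 and 3. With IFN-α it had 9.12, 9.25 and 9.00. The conditions overlapped throughout, and the lowest of the 15 arrays was the untreated one of experiment 1. High-dose AA and untreated cells differed by 0.08 (95% interval -0.12 to 0.27, limma adjusted p = 0.742), and by 0.10 without replicate 3. HSF1 is known to be controlled largely after its mRNA is made.

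HSPA8 encodes HSC70, the HSP70 that is made in unstressed cells. It varied least of the 10 genes, from 13.69 to 13.91 over the 15 arrays, a range of 0.22. Its cluster lay at percentile 99.9 or above in every array. High-dose AA gave 13.81, 13.78 and 13.91, and untreated cells gave 13.74, 13.76 and 13.81. The high-dose array was above the untreated one in all 3 experiments, by 0.08, 0.02 and 0.10. The group difference of 0.07 had an interval of -0.09 to 0.23. It was 0.03 without replicate 3, and 0.06 with experiment as a block as well.

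HSPA1B encodes a stress-inducible HSP70 of the cytosol. Of its 5 shared clusters, 8178086 and 8179324 held identical values, and over the 15 arrays all 5 correlated with each other at 0.968 or more, so they are repeated readings and not independent support. In cluster 8118310, the one with the highest mean, low-dose AA gave 9.21, 9.11 and 9.37, against 9.00, 8.94 and 9.06 in untreated cells. All 3 low-dose arrays were above all 3 untreated ones in each of the 5 clusters, which was so for 1 of the 10 genes and for 6.69% of all clusters. Without overlap in either direction were 11.6% of all clusters. The difference was 0.23 (SE 0.159, 95% interval -0.11 to 0.57, limma adjusted p = 1). Without replicate 3 of high-dose AA the smallest adjusted p of any heat shock cluster at the low dose was 0.947. With experiment as a block as well, the interval of cluster 8118310 was 0.02 to 0.44 (limma adjusted p = 0.572), and it and 8179322 (0.587) were below an unadjusted 0.05, as were 8.28% of all clusters. The intermediate dose and IFN-α had 0 genes without overlap against untreated cells, with 10.4% and 5.55% of all clusters.

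At higher doses HSPA1A/HSPA1B split by experiment. In cluster 8118310 the intermediate dose gave 9.31, 8.97 and 8.94 and the high dose 9.31, 8.98 and 8.51 in experiments 1, 2 and 3. Experiment 1 was thus above its untreated array by 0.31 at either dose, experiment 2 was within 0.04 of it, and in experiment 3 the high dose was at -0.55 from it. In cluster 8178086 that last difference was -1.13, with 7.87 in the high-dose array and 9.00 in the untreated one. The group difference for the high dose was between -0.24 and -0.06 over the 5 clusters, and it turned to 0.14 to 0.17 without replicate 3. Neither was called.

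**Figure D2:**
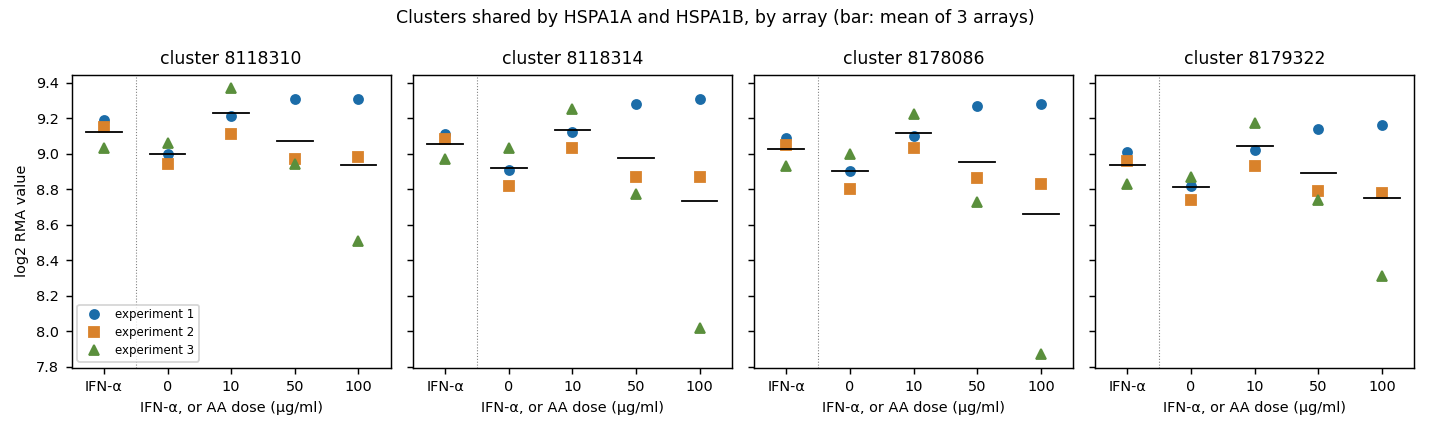
Log2 RMA values (vertical axis) of the clusters that HSPA1A and HSPA1B share, for IFN-α and for AA at 0, 10, 50 and 100 µg/ml, with a symbol per experiment and a bar at the mean of 3 arrays. The 3 low-dose arrays lie above the 3 untreated ones in every panel, and at 100 µg/ml the array of experiment 3 is the lowest, at 7.87 in cluster 8178086. A 5th cluster with the same values as 8178086 is not drawn.

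HSPH1 encodes HSP110, which exchanges the nucleotide of HSP70. It read 11.28, 11.24 and 11.36 with high-dose AA and 10.97, 11.16 and 11.17 in untreated cells. These groups did not overlap, which held for 1 of the 10 genes and for 10.5% of all clusters. The difference was 0.19 (SE 0.133, interval -0.09 to 0.48, limma adjusted p = 0.576), and 0.16 without replicate 3. With experiment as a block the SE was 0.0855 and the adjusted p 0.299, below an unadjusted 0.05 as 16.2% of all clusters were. With the block and without replicate 3 the difference was 0.23 (interval 0.03 to 0.43, limma adjusted p = 0.473). The gene was not called in any of these fits. The low dose gave 10.85, 11.22 and 11.36, the intermediate dose 11.02, 11.23 and 11.28, and IFN-α 10.92, 11.18 and 11.33, all overlapping with untreated cells.

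DNAJB1 encodes the stress-induced HSP40 that delivers clients to HSP70. Its values in untreated cells were 9.03, 8.89 and 9.05, and at 10, 50 and 100 µg/ml AA they were 9.21, 8.96 and 9.02, then 9.30, 8.89 and 9.10, then 9.39, 8.84 and 8.67. With IFN-α it read 9.33, 8.96 and 8.87. The SD over the 3 experiments was 0.09, 0.13, 0.20 and 0.38 at 0, 10, 50 and 100 µg/ml AA, and 0.24 with IFN-α. Each is of 3 values, and the 0.38 includes replicate 3 of high-dose AA. In experiment 1 the high-dose array was 0.36 above its untreated array, in experiment 2 it was at -0.06 from it and in experiment 3 at -0.39. The group difference of -0.03 (interval -0.39 to 0.34) averages these, and it was 0.12 without replicate 3. In experiment 1 the IFN-α array was higher by 0.30 as well, but all 4 differences share 1 untreated array.

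HSPB1 encodes HSP27, a small heat shock protein that binds unfolded proteins without ATP. High-dose AA gave 12.98, 13.06 and 12.30 and untreated cells 12.89, 13.01 and 13.03. Replicate 3 of high-dose AA was the lowest of all 15 arrays, at -0.72 from its untreated array, and the other 14 arrays lay within 0.21 of each other. The group difference was -0.19 (interval -0.51 to 0.12, limma adjusted p = 0.607) with this array and 0.04 without it.

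HSP90AA1 and HSP90AB1 encode the inducible and the constitutive cytosolic HSP90. HSP90AA1 read 12.21, 12.16 and 12.24 with high-dose AA, and 11.91, 12.06 and 12.19 in untreated cells. The difference of 0.15 (SE 0.0904, interval -0.05 to 0.34, limma adjusted p = 0.534) did not pass. It was 0.13 without replicate 3, and 0.17 with experiment as a block as well. With IFN-α, HSP90AA1 lay between 11.98 and 12.07, so that high-dose AA and IFN-α did not overlap, as for 11.2% of all clusters and no other of the 10 genes. Their difference was 0.18 (interval -0.01 to 0.38). With experiment as a block the interval was 0.01 to 0.35 (limma adjusted p = 0.252), below an unadjusted 0.05 as 17.6% of all clusters were. HSP90AB1 stayed between 12.57 and 12.84 over the 15 arrays. Its high-dose arrays were at 12.76, 12.70 and 12.84, against 12.74, 12.68 and 12.68 in untreated cells. The difference of 0.07 (interval -0.11 to 0.24) was 0.03 without replicate 3, and 0.06 with experiment as a block as well.

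HSPD1 and HSPE1 encode HSP60 and HSP10, the chaperonin of the mitochondrial matrix and its lid. HSPD1 read 12.12, 12.02 and 11.93 with high-dose AA and 12.10, 12.05 and 12.11 in untreated cells, a difference of -0.06 (interval -0.21 to 0.08) that was -0.02 without replicate 3. HSPE1 read 8.19, 8.16 and 7.79 with high-dose AA and 7.99, 8.11 and 8.10 in untreated cells, a difference of -0.02 (interval -0.25 to 0.21) that was 0.11 without replicate 3. Both genes had their lowest value of all 15 arrays in replicate 3 of high-dose AA. HSPE1 was the only one of the 10 genes that lay below the upper quartile of every array. RefSeq names 28 pseudogenes after HSPE1, 22 after HSPD1 and 20 after HSPA8, and how far the probes of these clusters also read such copies was not tested.

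**Figure D3:**
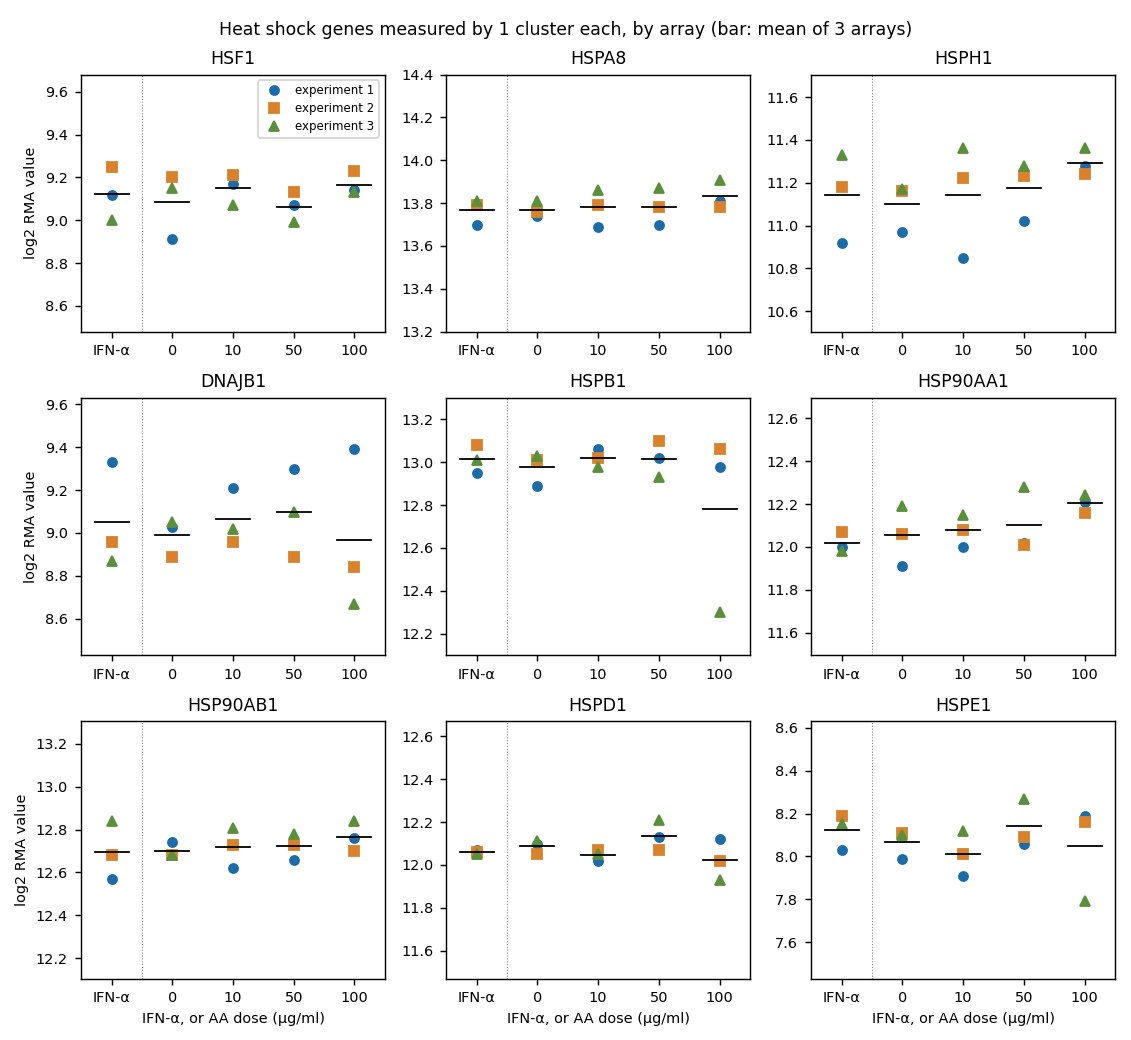
Log2 RMA values (vertical axis) of the 9 genes with a cluster of their own, for IFN-α and for AA at 0, 10, 50 and 100 µg/ml, with a symbol per experiment and a bar at the mean of 3 arrays. Every panel spans the same log2 range. The conditions overlap in nearly all panels, and the high-dose array of experiment 3 lies low for HSPB1 (12.30), DNAJB1 (8.67) and HSPE1 (7.79). By its median, experiment 1 is the lowest for HSPH1 and the highest for DNAJB1, though not in every condition.

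The 3 experiments gave different patterns with high-dose AA. In experiment 1, high-dose AA was above the untreated array for each of the 14 clusters, of which 5 are repeated readings of HSPA1A/HSPA1B. The differences were 0.31 to 0.40 for HSPA1A/HSPA1B, 0.36 for DNAJB1, 0.31 for HSPH1, 0.30 for HSP90AA1, 0.23 for HSF1 and 0.20 for HSPE1. The median of all clusters was -0.01, and that of the brightest 25% of clusters was 0.08. Among all clusters DNAJB1 stood there at percentile 95.7 and HSPH1 at 93.8. The smaller differences of HSPB1 (0.09), HSPA8 (0.08), HSP90AB1 (0.02) and HSPD1 (0.01) stood at percentiles 68.9, 66.6, 56.3 and 54.7. The other treatments of experiment 1 were set against the same untreated array. With low-dose AA, intermediate-dose AA and IFN-α, HSF1 was above it by 0.25, 0.16 and 0.20. DNAJB1 was above it by 0.18, 0.27 and 0.30 in that order, and HSPA1A/HSPA1B cluster 8118310 by 0.21, 0.31 and 0.20. HSPH1 stood at -0.12, 0.05 and -0.05 from it, HSPE1 at -0.07, 0.07 and 0.04 and HSP90AA1 at 0.09, 0.11 and 0.09. In experiments 2 and 3 the differences are again for high-dose AA, and in experiment 2 all 14 lay between -0.06 and 0.10. In experiment 3, HSPA1A/HSPA1B (-1.13 to -0.55), HSPB1 (-0.72), DNAJB1 (-0.39), HSPE1 (-0.32) and HSPD1 (-0.17) were below the untreated array and HSPH1 (0.19), HSP90AB1 (0.16) and HSPA8 (0.10) above it. The whole scale was compressed on that high-dose array. Its dimmest 25% of clusters differed from the untreated array by a median of 0.23 and the brightest 25% by -0.19, and the part of this compression in the low readings of heat shock genes was not tested. HSPA8, HSPH1, HSP90AA1 and HSP90AB1 were higher with high-dose AA in all 3 experiments (4 of 10 genes, against 15% of all clusters), and 0 of 10 were lower in all 3. Some of these differences were those of a typical cluster. In experiment 2 HSPA8 and HSP90AB1 were at 0.02, with a median of 0.02 over all clusters. In experiment 3 HSP90AA1 was at 0.04, with a median of 0.05. HSPH1 was above the median in each experiment. For low-dose AA 1 gene was higher in all 3 (15.8% of all clusters), for intermediate-dose AA 2 (14.7%) and for IFN-α 1 (9.47%).

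**Figure D4:**
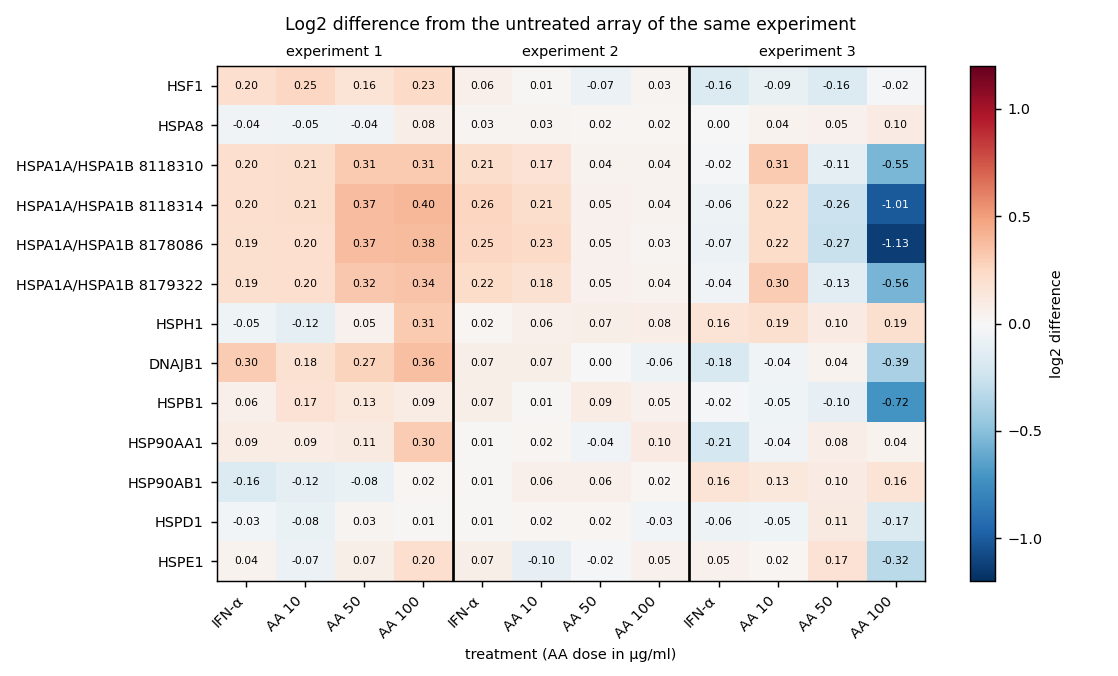
Log2 difference from the untreated array of the same experiment (colour and printed value) for each heat shock cluster (rows) and treatment (columns), in blocks for experiments 1, 2 and 3. High-dose AA (AA 100) is above 0 in every row of experiment 1, close to 0 in experiment 2 and as low as -1.13 in experiment 3. The rows of HSF1, HSPA1A/HSPA1B, DNAJB1, HSPB1 and HSP90AA1 are above 0 with every treatment of experiment 1.

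The median of the 10 genes lay close to that of the whole array. Their log2 difference from untreated cells had a median of 0.02 for high-dose AA, with 0.02 over all clusters. It was 0.05 for intermediate-dose AA (0.01 over all clusters), 0.03 for low-dose AA (0.01) and 0.04 for IFN-α (-0.01). By sign, 5 of 10 genes were higher with high-dose AA (54.4% of all clusters), 9 with intermediate-dose AA (52.6%), 8 with low-dose AA (52.3%) and 6 with IFN-α (45.7%). The slopes on the AA dose, per 100 µg/ml, ran between -0.33 and 0.18, and the smallest adjusted p was 0.496, for HSP90AA1. With experiment as a block the slopes of HSPH1 (0.18, interval 0.01 to 0.34, limma adjusted p = 0.285) and HSP90AA1 (0.14, adjusted p = 0.311) were below an unadjusted 0.05, as were 15.9% of all clusters, and neither was called.

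Of the 10 genes, HSPH1 and DNAJB1 had the smallest p for a difference among experiments. This was tested after the values had been seen, with limma's F test of the experiment in a model with the conditions. HSPH1 was higher in experiment 2 than in experiment 1 by 0.20 and in experiment 3 by 0.29, with medians of 10.97, 11.22 and 11.33 in experiments 1, 2 and 3 (limma adjusted p = 0.0566). DNAJB1, averaged over the conditions, was lower in both later-numbered experiments, with differences of -0.34 and -0.31 from experiment 1 (limma adjusted p = 0.0695). Its untreated arrays alone read 9.03, 8.89 and 9.05 in experiments 1, 2 and 3, so experiment 3 was not lower there. The 5 arrays of experiment 1 ranged from 9.03 to 9.39 and did not overlap with those of experiment 2, at 8.84 to 8.96. They did overlap with those of experiment 3, at 8.67 to 9.10. Neither gene passed an adjusted p of 0.05, which 3.86% of all clusters did. Without replicate 3 of high-dose AA both did (adjusted p = 0.033 for HSPH1 and 0.0295 for DNAJB1), as did 6.82% of all clusters, and the other 8 genes did not in either setting. HSPA1A/HSPA1B differed by -0.22 between experiments 3 and 1 in cluster 8118310, with a wider spread (SE 0.112, limma adjusted p = 0.358). In cluster 8178086 the difference was -0.37 (SE 0.176, limma adjusted p = 0.35). It includes replicate 3 of high-dose AA, at 7.87. The untreated arrays of that cluster read 8.90 in experiment 1 and 9.00 in experiment 3.

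Some of the genes varied together over the 15 arrays. Of 45 pairs, 5 had a correlation with a permutation p under 0.05 after Benjamini-Hochberg adjustment, and the median r was 0.0688. HSPA8 and HSPH1 formed the highest pair (Pearson r = 0.895, permutation p = 1e-05, the smallest the permutations can give, adjusted p = 0.00045, and Spearman rho = 0.9, permutation p = 3e-05, adjusted p = 0.00135), and r was 0.888 without the 2 arrays farthest from the median of HSPA8. HSP90AB1 correlated with HSPA8 at r = 0.842 and with HSPH1 at r = 0.829. HSPA1A/HSPA1B and DNAJB1, the stress-induced HSP70 and its HSP40, correlated at r = 0.758 (adjusted permutation p = 0.00844). The lowest pair was HSPA8 and HSPB1 (r = -0.549, permutation p = 0.0268, adjusted p = 0.132, rho = -0.357, permutation p = 0.191), which was 0.00116 without the 2 farthest arrays. After subtraction of each experiment's mean, 0 of 45 pairs passed (r = 0.787 for HSPA8 and HSPH1, adjusted permutation p = 0.169), where permutations ran within experiments.

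HSPD1 and HSPE1, whose promoter windows overlap, correlated at r = 0.647 (permutation p = 0.0118, adjusted p = 0.0827) and rho = 0.259 (permutation p = 0.347). The relation rested on few arrays: r was 0.0163 without the 2 arrays farthest from the median of HSPD1 and 0.407 without replicate 3 of high-dose AA. After subtraction of the experiment means it was 0.766 (adjusted permutation p = 0.169).

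Other genes of the folding network showed no call either. Of 112 listed genes 108 were measured, HSPA1A among them through the shared clusters, and 0 passed p under 0.001 in any treatment against untreated cells. At an unadjusted limma p under 0.05 there were 8 with high-dose AA (7.41%, with 11% of all clusters), 1 with intermediate-dose AA and 0 with low-dose AA or IFN-α. By family, the 8 were 1 of 5 heat shock factors, 2 of 12 other HSP70 genes, 1 of 32 other HSP40 genes, 1 of 8 small heat shock proteins, 1 of 13 HSP90 co-chaperones, 0 of 10 HSP70 co-chaperones, 1 of 15 subunits of the cytosolic chaperonin and prefoldin and 1 of 13 mitochondrial chaperones and proteases. None reached an adjusted p below 0.422.

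The 8 differences, each high-dose AA minus untreated on the log2 scale, were in both directions. The lower ones were the HSP40 gene DNAJB4 (-0.39, limma adjusted p = 0.422), the heat shock factor HSF4 (-0.39, adjusted p = 0.441), HSPA13, an HSP70 of the microsomes (-0.34, adjusted p = 0.444), AHSA2P, a pseudogene related to the HSP90 activator AHSA1 (-0.56, adjusted p = 0.441), and YME1L1, a protease of the mitochondrial inner membrane (-0.22, adjusted p = 0.427). By the same limma fit the higher ones were HSPB8, a small heat shock protein that works with BAG3 (0.38, adjusted p = 0.427), HSPA2, an HSP70 best known from the testis (0.25, adjusted p = 0.441), and the prefoldin subunit PFDN2 (0.16, adjusted p = 0.444). Without replicate 3 of high-dose AA, DNAJB4 (-0.26), YME1L1 (-0.20) and HSPB8 (0.39) were still below an unadjusted 0.05 by limma and the other 5 were not. HSPB8 was dim, at 4.76 ± 0.14 with high-dose AA and 4.38 ± 0.12 in untreated cells (SD, n = 3 each). Its slope on the dose, 0.42 per 100 µg/ml, had a limma adjusted p of 0.412. With experiment as a block it was 0.122, and this was the 1 gene of the network that passed the threshold of the calls in that fit, as did 0.785% of all clusters.

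Genes commonly read as targets of HSF1 beside the 10 genes were measured for 13 of 15 names, HSPA1A among them through a cluster shared with HSPA1B. Their median with high-dose AA was 0.07, with 0.02 over all clusters, and 1 of 13, HSPB8, had an unadjusted limma p under 0.05. BAG3, an HSP70 co-chaperone induced by proteotoxic stress, was at -0.16 (limma adjusted p = 0.548), and SERPINH1, the collagen chaperone, at -0.24 (0.493). Without replicate 3 they were at -0.01 and -0.07. BAG2, another HSP70 co-chaperone (0.17), CLPB, which takes aggregates apart in mitochondria (0.15), and DNAJC15, a mitochondrial HSP40 (0.20), also missed an unadjusted 0.05 (limma adjusted p between 0.462 and 0.474).

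The clusters whose pattern was most like the mean of the 10 genes were found over the 15 arrays after subtraction of the experiment means. They were PCNA, the sliding clamp of DNA replication (r = 0.975), FKBP4, an HSP90 co-chaperone (r = 0.949), TRIP13, an ATPase of the mitotic checkpoint (r = 0.937), NOL6, a nucleolar protein (r = 0.93), and RUVBL1, an ATPase of chromatin remodelling and complex assembly (r = 0.921). Without replicate 3 of high-dose AA these values were between 0.922 and 0.972. The mean pattern itself was highest in replicate 1 of high-dose AA (1.30 standard deviations) and lowest in its replicate 3 (-0.81), and untreated replicate 1 was at -0.62. The 10 genes followed their own mean unevenly. Their r with it ran from 0.154 for HSF1 and 0.2 for HSP90AB1 to 0.778 for DNAJB1. The 5 clusters were picked from all clusters with 1 symbol for their likeness, so these correlations are a description.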

How the data were processed

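The 15 arrays were grouped by the labels. The log2 values were deposited by the authors after RMA with the xps package, as the study's methods state, and were used with no further normalization. Raw intensities were not used here, and the genome build of the clusters is not given in the sources used here. Differences were fitted with limma 3.58.1 in R 4.3.3 as 1 model over 15 arrays and 5 conditions without a block (the study's methods name limma and state no block; 10 residual and 3.91 prior degrees of freedom). The slope used the 12 AA and untreated arrays. Calls are at an unadjusted p under 0.001 (28.9 calls of 28926 if nothing changes), with Benjamini-Hochberg values over all clusters beside them. The script was tested on simulated data. The precision is limited by the 3 arrays per condition.

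The 10 genes and the gene lists were chosen with earlier results of these data known. All 10 genes are described. Of each list the counts are given, with up to 3 genes by the smallest high-dose p and any gene called, a rule that also takes the 5 single-symbol clusters most like the mean pattern. A gene of several clusters was read from the one with the highest mean.

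Replicate numbers stand for experiment tags in the sample titles, which pair the arrays. After subtraction of condition means, arrays of the same number correlated at a median of 0.281 (-0.194 to 0.536, 30 pairs) and arrays of different number at -0.172 (60 pairs). Alternatives were a fixed or random block (statmod 1.5.0, consensus correlation 0.157), a filter on the dimmest 25% of clusters, clusters with 1 symbol, trend and robust settings, array weights, cyclic loess, other thresholds, models of 2 groups and leaving out each array or experiment. Correlations used 100000 permutations in numpy 2.4.6.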

Additional observations from a re-analysis of the deposited data

How the results depend on the processing

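The count of heat shock clusters called was 0 in each of the 7 comparisons with the replicate block, and also under the other alternatives tried, up to 29 per comparison, including each array or experiment left out (0 to 0). The blocked fit, paired by experiment, put HSPH1 (high-dose AA against untreated, limma adjusted p = 0.299), HSP90AA1 (high-dose AA against IFN-α, 0.252) and the slopes of both (0.285 and 0.311) below an unadjusted 0.05, short of a call. Without high-dose AA replicate 3 the blocked fit added HSPA1A/HSPA1B at the low dose (2 of 5 clusters) and HSPE1 in its slope (limma adjusted p = 0.51) and in high-dose against low-dose AA (0.582), and again no call. The median difference of the 10 genes ranged over the alternatives from -0.0486 to 0.128 for high-dose AA, 0.0119 to 0.0788 for intermediate-dose AA, -0.017 to 0.074 for low-dose AA and -0.0111 to 0.0661 for IFN-α. Since no gene was called, no call could be lost. With 3 arrays per condition, half-widths of the 95% intervals ran from 0.14 to 0.54 on the log2 scale, and were widest for HSPA1A/HSPA1B. An estimate smaller than its half-width does not reach an unadjusted p of 0.05. A call at p under 0.001 needed a larger difference than that.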
